A study of Mus musculus with 23 samples.

Results

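The genes described here encode the enzymes of central carbon metabolism and of sterol and fatty acid synthesis. They were chosen by name, as a list of 47 enzymes of glycolysis, pyruvate dehydrogenase and the citric acid cycle, the pentose phosphate pathway, and sterol or fatty acid synthesis. A gene was counted as measured where at least 1 array probe carried its symbol and no other. That held for 34 of the 47, out of 8683 genes measured in all. The measured enzymes were 13 of glycolysis, 11 of pyruvate dehydrogenase and the citric acid cycle, 2 of the pentose phosphate pathway, 6 of sterol synthesis and 2 of fatty acid synthesis. The other 13 (Gpi1, Pgam1, Eno1, Eno2, Ldhb, Idh2, Suclg1, G6pdx, Pgd, Fdps, Idi1, Scd1 and Scd2) were not analysed here. Both oxidative enzymes of the pentose phosphate pathway on the list, G6pdx and Pgd, are among these 13.

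Glycolysis splits glucose to pyruvate and makes ATP in the cytosol, and lactate dehydrogenase turns pyruvate to lactate. Pyruvate dehydrogenase instead passes pyruvate to the mitochondrial citric acid cycle, whose citrate is also the source of cytosolic acetyl-CoA for fatty acids and sterols. The pentose phosphate pathway makes ribose for nucleotides and NADPH for synthesis. Sterol synthesis genes are known to be switched on together by the transcription factor SREBP-2 when cell cholesterol is low. Pluripotent cells are known for high glycolytic flux.

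A404, the source of the RNA, is 1 clone of P19 mouse embryonal carcinoma, sampled at 4 points on a path towards smooth muscle. In this clone, as background, a gene for resistance to puromycin is driven by the promoter of Acta2 (smooth muscle alpha-actin). Control cells (6 arrays) were undifferentiated, had no retinoic acid and were taken near confluence. The RA48 group (5 arrays) had 48 h of 1 µmol/L all-trans retinoic acid, and the RA96 group (6 arrays) had 96 h of it. In these groups the medium was changed at about 30% confluence, so retinoic acid and cell density cannot be told apart in a comparison with Control. Puromycin arrays (6) came from cells treated with puromycin for 48 h after 96 h in retinoic acid; whether the retinoic acid continued is not stated in the labels. Puromycin itself, the loss of the cells it kills and the further 48 h of culture after RA96 cannot be told apart. Each array set Cy5-labelled RNA from 5 to 6 plates against a Cy3-labelled pool of RNA of whole day 17.5 embryos, with no dye swap.

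All values are log2 ratios of A404 over embryo RNA, so a value of 1 is a level 2 times that of the embryo pool. The deposited log ratios were taken to be log10 values and rescaled. The base, any centring and the direction are not stated in the deposited table, so folds rest on this reading. Group means ± SD are given over arrays. Changes come from 1 limma model over all 23 arrays, as the mean of the first group named minus that of the second, ± SE, with p-values adjusted by Benjamini and Hochberg's method over 17863 rows. A gene is called at an adjusted p under 0.05, and rose or fell is written only of called changes. Nothing in the labels tells if replicates were grown as separate cultures. The p-values therefore measure only the spread between these samples, part or all of which may be technical. Levels are compared within a gene only, because each probe has its own reference. In bulk RNA, fewer cells of a type and less RNA per cell cannot be told apart.

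The arrays of a group differed in a shared way. After group means were taken off, the first principal component held 48.9% of the variance and parted 11 arrays from 12. These sets were replicates 1 to 3 against replicates 4 to 6 of every group, except that RA96 replicate 2 lay with replicates 4 to 6. Labels do not name such sets. Treating arrays of the same group and set as correlated (estimated correlation 0.675) left 12 of the 40 member calls given below, and these are named with each comparison. Fits with a fixed block, for the array set, for replicates 1 to 3 against 4 to 6 or for the replicate number, kept all 40 calls and added others, and what they added is given as called with a block. The array sets and the split of replicate numbers were read from these same arrays, so p-values of those blocks are optimistic. The same holds for p-values within 1 part of either split. The choice of sets also partly fixed the estimated correlation, so calls left with correlated arrays are no independent check. The replicate number contains the split of 1 to 3 from 4 to 6, so its block adds no separate support. Shares of all genes given below come from the fit without a block. Marker genes of 5 cell types were followed as well. Over 7 measured embryonal carcinoma genes, the median per array ran from 1.93 to 2.52 in Control, -0.16 to 0.58 in RA48, -0.25 to 0.29 in RA96 and -0.34 to 0.10 in Puromycin. Over 8 smooth muscle genes it ran from -3.01 to -1.85, -1.00 to -0.44, -0.01 to 0.41 and -0.10 to 0.14 in the same order. Over 6 endoderm genes it ran from -1.53 to -1.05, -0.75 to -0.53, -0.83 to -0.33 and -0.55 to -0.42. Over 9 neuron genes it ran from -0.57 to -0.15, -0.53 to -0.37, -0.14 to 0.07 and -0.50 to -0.01. Of these 9, 1 rose and 2 fell both in RA48 against Control and over the whole course. From RA48 to RA96 2 rose and none fell, and after RA96 none rose and 1 fell. Shares of all genes are given with each comparison below. Over 8 striated muscle genes it ran from -1.56 to -0.44, -1.42 to -0.82, -1.81 to -0.93 and -1.52 to -0.77, with 1 call in the 4 comparisons, a fall over the course. The part of these cell states in the enzyme results was not tested.

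After 48 h of retinoic acid, some enzymes of glycolysis and of pyruvate entry into the citric acid cycle were lower. Of the 34 measured enzymes 9 fell and none rose in RA48 against Control, where 16.4% of all genes fell and 18% rose. The 9 were Pfkl, Pfkm, Pfkp, Tpi1, Pkm and Ldha of glycolysis, and Pdha1, Pdhb and Idh3a of pyruvate dehydrogenase and the citric acid cycle. At an unadjusted p under 0.05 in limma, 2 enzymes (Eno3 and Cyp51) were higher and 10 lower. The median change was -0.14 over the enzymes and -0.02 over all genes. Pfkm, Pkm, Pdhb and Idh3a stayed called with correlated arrays. Whether any enzyme rose depended on the fit: Eno3 (0.69, adjusted p = 0.00048) and Cyp51 (0.57, 0.012) were called higher with replicates 1 to 3 against 4 to 6 as a block and with the replicate block (0.001 and 0.023), with 11 enzymes lower in each. With the array set as a block 4 were called higher, these 2 and Hk2 and Idh3b, and 12 lower. That block also raised the calls over all 17863 rows from 4642 to 7029. Shares of all genes at the unadjusted threshold and with the other blocks are not given, so those counts have no background beside them.

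From 48 to 96 h of retinoic acid 2 enzymes rose (Hk1 and Cs) and 4 fell (Dhcr7, Pkm, Aldoc and Tpi1), where 10.8% of all genes rose and 11.6% fell. The median change was -0.15 over the enzymes and -0.03 over all genes. From RA96 to Puromycin 3 rose (Pkm, Tpi1 and Hk1) and 1 fell (Idh1), where 4.7% of all genes rose and 3.12% fell. The median change was -0.13 over the enzymes and -0.01 over all genes. None of these 10 calls remained with correlated arrays. From RA48 to RA96, 3 enzymes were higher and 8 lower both with replicates 1 to 3 against 4 to 6 as a block and with the replicate block, which added Idh3a to the rises and Tkt, Fasn, Hk2 and Idh3g to the falls. The array set as a block gave 3 and 12. Over all rows, calls in this step also went up, from 3540 without a block to 5429 with the split of replicate numbers and 5726 with the array set. After RA96, the split of replicate numbers as a block gave 3 higher and 4 lower, with Hmgcs1, Cyp51 and Mdh1 added to the falls. Over all rows that block raised the calls after RA96 from 942 to 2272.

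Across the whole course, Puromycin against Control, 19 of the 34 enzymes fell and 2 rose, where 28.6% of all genes fell and 24.6% rose. The median change was -0.40 over the enzymes and -0.06 over all genes. The falls were spread over all 5 pathways: 6 of 13 in glycolysis, 6 of 11 in pyruvate dehydrogenase and the citric acid cycle, 2 of 2 in the pentose phosphate pathway, 3 of 6 in sterol synthesis and 2 of 2 in fatty acid synthesis. The rises were Hk1 and Cs. With correlated arrays Hk1 stayed called as a rise, and Pfkl, Pfkm, Pkm, Pdha1, Pdhb, Idh1 and Dhcr7 as falls. With replicates 1 to 3 against 4 to 6 or the replicate number as a block 24 fell, with Hk2, Aldoa, Mdh1, Hmgcs1 and Sqle added. The share of all genes that fell with these blocks is not given, so this count has no background beside it. A test of any difference among the 4 groups (F test) called 24 of the 34 enzymes and 60.8% of all genes. Consecutive comparisons share a group, so their changes are not independent.

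**Figure D1:**
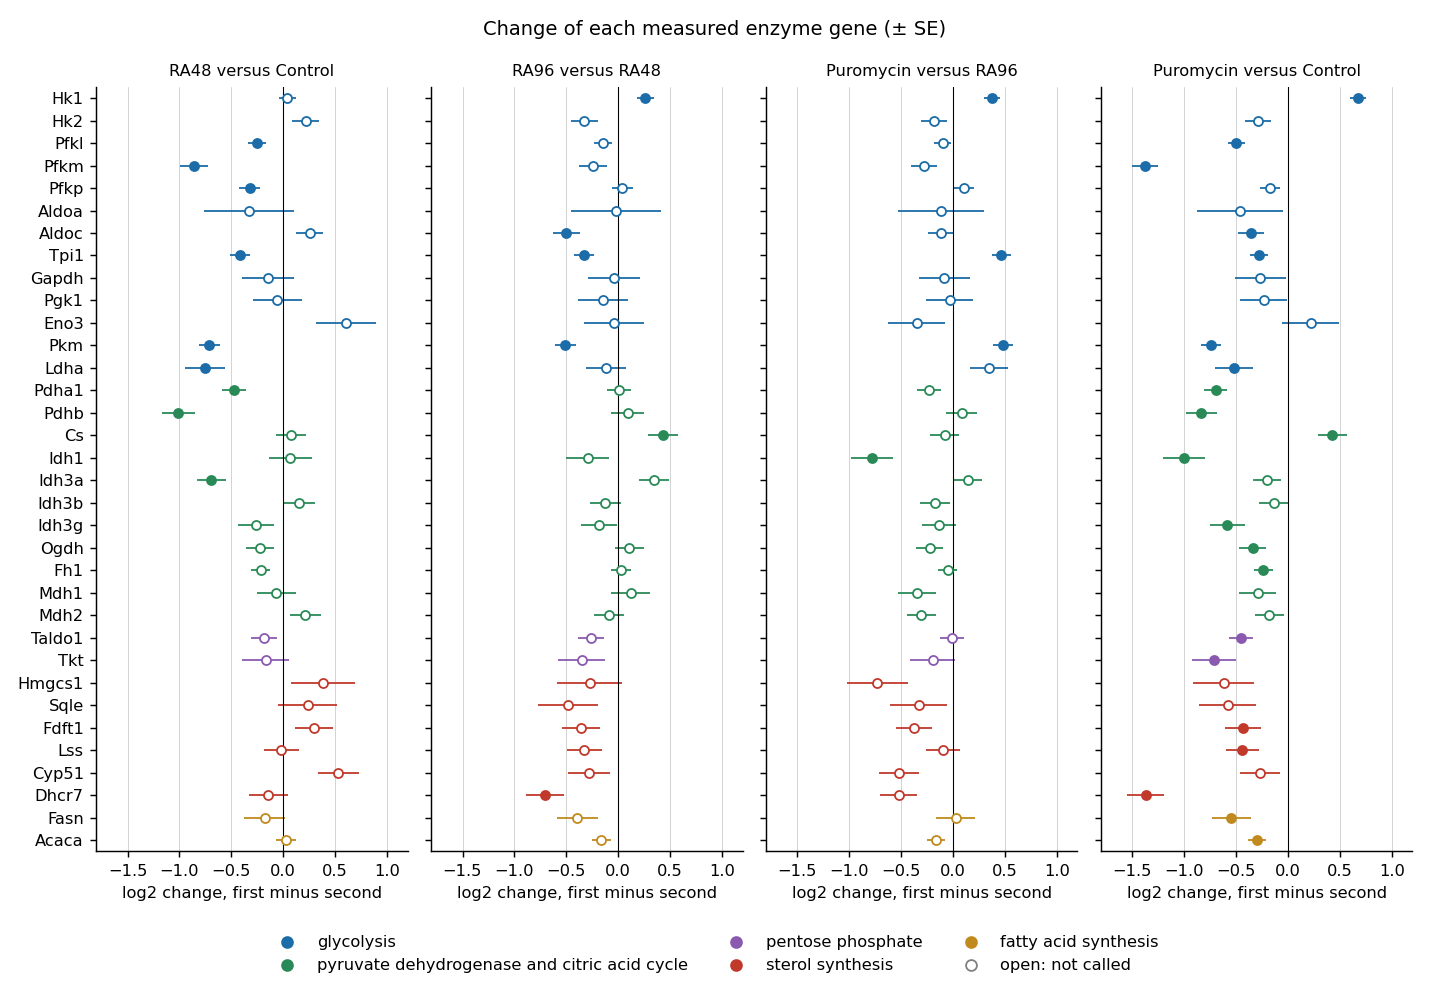
The horizontal axis is the log2 change, first group minus second, of each of the 34 measured enzymes in 4 comparisons, with bars for the SE. Filled points are called, and 19 of the points left of 0 in Puromycin against Control are filled.

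**Figure D2:**
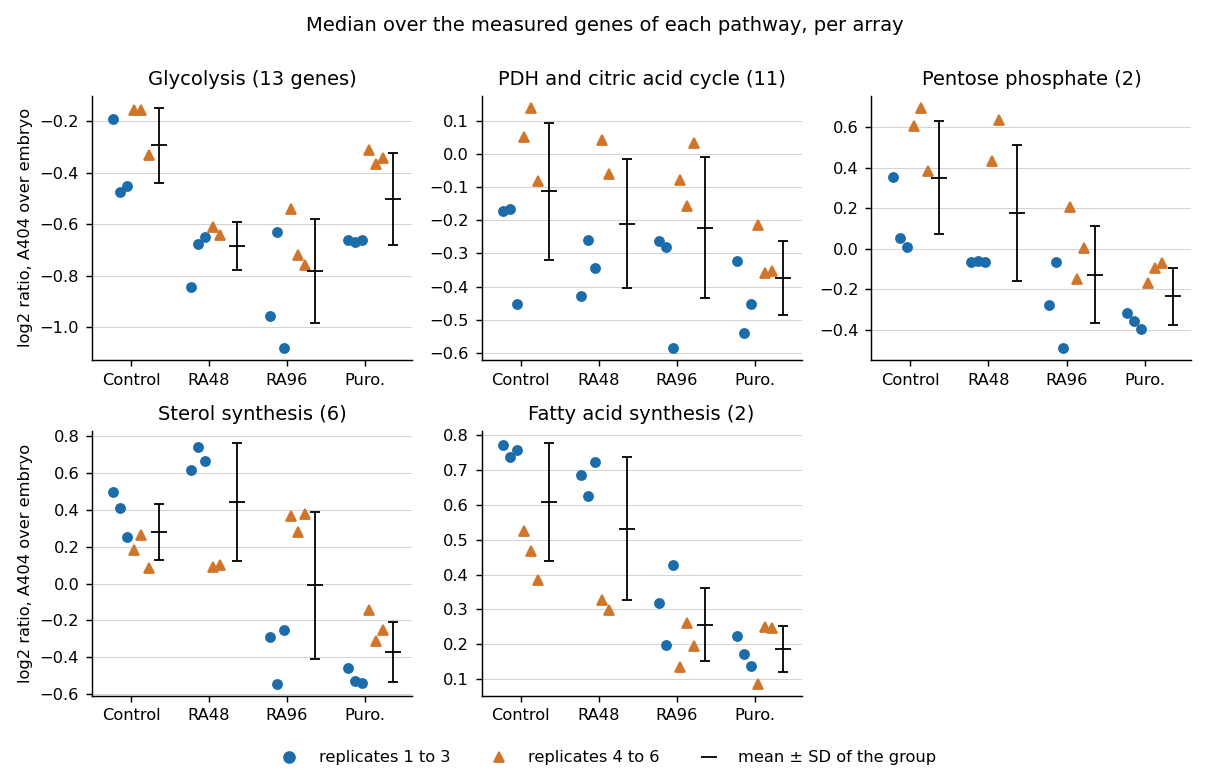
Each point is 1 array and shows the median log2 ratio over the measured genes of a pathway, with circles for replicates 1 to 3, triangles for replicates 4 to 6 and bars for the mean ± SD of a group. Glycolysis lies lower in RA48, RA96 and Puromycin than the Control mean of -0.29, and the sterol panel parts by replicate number in RA48 and RA96.

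Among the glycolytic enzymes the 2 hexokinases, which trap glucose in the cell as glucose 6-phosphate, had different courses. Hk1, the widely expressed form, ran from -1.27 to -0.77 in Control (median -0.89). In RA48 it was -0.87, -0.93, -0.83, -0.86 and -0.99. It then ran from -0.76 to -0.50 in RA96 (median -0.64) and from -0.34 to -0.13 in Puromycin (median -0.25). Puromycin arrays lay above the arrays of each other group with no overlap. Of all genes, 25.9% had no overlap between RA48 and Control and 13.7% none between RA96 and RA48. The shares were 6.63% for Puromycin and RA96 and 35.2% for Puromycin and Control. They are the background to each statement on overlap of whole groups below. Hk1 rose by 0.26 ± 0.08 from RA48 to RA96 (adjusted p = 0.027), by 0.37 ± 0.08 from RA96 to Puromycin (0.0049) and by 0.68 ± 0.08 over the whole course (2.6e-07), or 1.6-fold. The rise from RA48 to RA96 was not called without RA48 replicate 1, 2 or 5 or RA96 replicate 1 or 4 (adjusted p up to 0.064). Hk2, the form known for its response to insulin and hypoxia, differed among the groups (F test, adjusted p = 0.017), with means of 1.06 ± 0.18, 1.28 ± 0.20, 0.95 ± 0.28 and 0.77 ± 0.18 in order of the course, and no single comparison was called without a block. With the replicate block Hk2 was called lower over the course (-0.29, adjusted p = 0.008) and from RA48 to RA96 (-0.29, 0.028). With replicates 1 to 3 against 4 to 6 as a block these p were 0.0031 and 0.011, and with the array set as a block 0.00076 and 0.018.

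Phosphofructokinase commits glucose to glycolysis, and all 3 of its genes were lower in RA48 than in Control. Pfkm, the form named for muscle, had the widest range of group means of the glycolytic enzymes. It ran from -0.48 to -0.19 in Control (median -0.31) and was -1.16, -1.16, -1.07, -1.18 and -1.30 in RA48. It ran from -1.74 to -1.14 in RA96 (median -1.34) and from -2.09 to -1.34 in Puromycin (median -1.68). Every Control array lay above every other array. Pfkm fell by 0.86 ± 0.13 in RA48 (adjusted p = 3.2e-05) and by 1.38 ± 0.13 over the whole course (7.8e-09), or 2.6-fold. Its values in RA96 and Puromycin parted by replicate number: Puromycin replicates 1 to 3 were -2.09, -1.96 and -1.88, and replicates 4 to 6 were -1.34, -1.44 and -1.48. Pfkl, the form named for liver, had means of -0.66 ± 0.13, -0.91 ± 0.12, -1.06 ± 0.15 and -1.16 ± 0.10, and fell by 0.25 ± 0.09 in RA48 (0.032) and by 0.50 ± 0.08 over the course (3.5e-05). The first of these was not called without Control replicate 2, 3 or 4 or RA48 replicate 2, 4 or 5 (adjusted p up to 0.087). Pfkp, the form named for platelets, fell by 0.32 ± 0.10 in RA48 (0.021), but its change was -0.63 in replicates 1 to 3 and 0.06 in replicates 4 to 6. That call was lost without Control replicate 2 or RA48 replicate 1, 2 or 3 (adjusted p up to 0.071). Its 4 probes changed by -0.43, -0.04, -0.24 and -0.58.

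Aldolase cleaves the 6-carbon sugar, and triosephosphate isomerase (Tpi1) interconverts the products. Tpi1 ran from -0.51 to -0.16 in Control (median -0.30) and was -0.96, -0.68, -0.48, -0.65 and -0.87 in RA48. It ran from -1.17 to -0.96 in RA96 (median -1.09) and from -0.67 to -0.31 in Puromycin (median -0.66). Tpi1 thus was lowest in RA96 and came part of the way back in Puromycin, with no overlap between these groups. It fell by 0.41 ± 0.09 in RA48 (adjusted p = 0.002) and by 0.33 ± 0.09 from RA48 to RA96 (0.018), rose by 0.46 ± 0.09 in Puromycin against RA96 (0.0028), and ended 0.28 ± 0.09 below Control (0.015). The fall from RA48 to RA96 was not called without RA48 replicate 3 (adjusted p = 0.071). Aldoc, the aldolase known from brain, ran from -1.01 to -0.60 in Control (median -0.87) and was -0.55, -0.67, -0.41, -0.61 and -0.64 in RA48. It ran from -1.42 to -0.83 in RA96 (median -0.97) and from -1.49 to -0.87 in Puromycin (median -1.19). It fell by 0.50 ± 0.13 from RA48 to RA96 (0.011), with no overlap. Its fall of 0.36 ± 0.13 over the course (0.025) was -0.71 in replicates 1 to 3 and 0.00 in replicates 4 to 6. It was not called without Control replicate 2 or 3 or Puromycin replicate 1, 2 or 3 (adjusted p up to 0.068).

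The enzymes in the middle of the pathway gave no called change without a block. Aldoa, the aldolase of most tissues, had means of -0.42 ± 0.82, -0.75 ± 0.75, -0.77 ± 0.81 and -0.89 ± 0.66 (F test, adjusted p = 0.76). Its SD within groups was wider than the range of the group means, and it parted by array set. In Control it was -0.95, -1.01 and -1.50 in replicates 1 to 3 and 0.32, 0.39 and 0.21 in replicates 4 to 6. Gapdh, which makes the first NADH of the pathway and is widely used as a reference gene, was 1.28 ± 0.51, 1.13 ± 0.62, 1.10 ± 0.36 and 1.01 ± 0.19 (0.79). Pgk1, which makes the first ATP, was 1.39 ± 0.61, 1.33 ± 0.50, 1.19 ± 0.26 and 1.15 ± 0.10 (0.75). Eno3, the muscle enolase, was far below the embryo pool in all groups, at -3.62 ± 0.60, -3.01 ± 0.37, -3.05 ± 0.47 and -3.40 ± 0.51 (0.18). Without a block, the change from Control to Puromycin lay within the spread between arrays for these 4 genes. For Aldoa it was -0.46, called with replicates 1 to 3 against 4 to 6 as a block and with the replicate block (adjusted p = 0.038 in each), and with the array set as a block (0.00021). In replicates 4 to 6 alone, Puromycin lay below Control without overlap for Aldoa (-0.37 to -0.18 against 0.21 to 0.39; adjusted p = 0.00021) and for Pgk1 (1.18 to 1.31 against 1.74 to 2.05; 0.00029), and Gapdh was called lower too (0.018). None of these 3 was called in replicates 1 to 3 alone (0.44, 0.38 and 0.93). Eno3 was called higher in RA48 than in Control in replicates 1 to 3 (0.016) and in replicates 4 to 6 (0.007). This split was chosen after seeing the data and narrows the spread within each part, so these p-values are optimistic. Non-overlap of so few arrays often arises by chance, and its share of all genes within a part is not given.

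Pkm and Ldha close the pathway. Pkm, the pyruvate kinase that yields pyruvate and ATP, was above the embryo pool on every array. It ran from 2.32 to 2.75 in Control (median 2.67) and was 1.60, 1.77, 2.03, 2.13 and 1.95 in RA48. It ran from 1.24 to 1.52 in RA96 (median 1.40) and from 1.73 to 2.09 in Puromycin (median 1.84). Consecutive groups did not overlap, with RA96 lowest. Pkm fell by 0.71 ± 0.10 in RA48 (adjusted p = 7.6e-06) and by 0.51 ± 0.10 from RA48 to RA96 (0.0011), rose by 0.48 ± 0.09 in Puromycin against RA96 (0.003), and ended 0.74 ± 0.09 below Control (1.2e-06), or 1.67-fold. Replicates 1 to 3 and replicates 4 to 6 each gave -0.74 for the whole course. Which splice form of Pkm was measured is not given by the symbol. Ldha, the lactate dehydrogenase subunit known to favour lactate, ran from -0.91 to 0.08 in Control (median -0.28) and was -1.65, -1.27, -0.67, -0.81 and -1.01 in RA48. It ran from -1.41 to -0.99 in RA96 (median -1.22) and from -1.20 to -0.38 in Puromycin (median -0.90). Control overlapped with RA48 and Puromycin but not with RA96. Ldha fell by 0.75 ± 0.19 in RA48 (0.005) and by 0.52 ± 0.18 over the course (0.024). The latter was not called without Control replicate 4, 5 or 6 or Puromycin replicate 1, 2 or 3 (adjusted p up to 0.062).

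**Figure D3:**
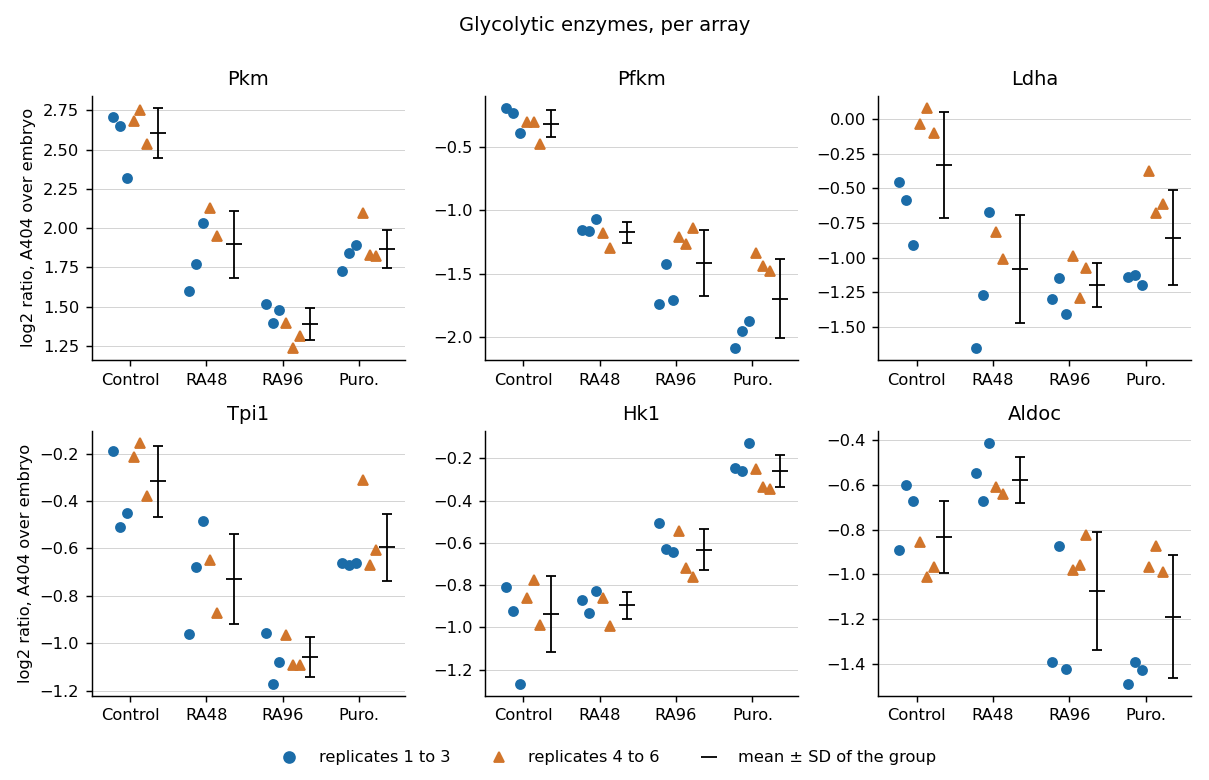
The log2 ratio over the embryo pool of 6 glycolytic enzymes is shown for each array, with circles for replicates 1 to 3, triangles for replicates 4 to 6 and bars for mean ± SD. Pkm and Tpi1 are lowest in RA96, Pfkm goes on down to a Puromycin mean of -1.70, and Hk1 goes up to -0.26.

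Both measured subunits of the first enzyme of pyruvate dehydrogenase fell. Pdhb, its beta subunit, ran from 0.33 to 1.21 in Control (median 0.74) and was -0.53, -0.41, -0.34, 0.09 and -0.06 in RA48. It ran from -0.59 to 0.04 in RA96 (median -0.13) and from -0.32 to 0.29 in Puromycin (median -0.10). All Control arrays lay above all others, and the later groups overlapped. Pdhb fell by 1.01 ± 0.16 in RA48 (adjusted p = 3.8e-05), or 2.02-fold, the largest called fall of an enzyme in that comparison, and was 0.83 ± 0.15 below Control in Puromycin (0.00011). Pdha1, the alpha subunit, ran from 0.32 to 1.03 in Control (median 0.75) and was 0.05, 0.22, 0.04, 0.45 and 0.46 in RA48. It ran from 0.15 to 0.37 in RA96 (median 0.24) and from -0.13 to 0.24 in Puromycin (median 0.00). It fell by 0.47 ± 0.12 in RA48 (0.004) and by 0.70 ± 0.11 over the course (2.7e-05), when Control and Puromycin arrays did not overlap. Both its probes were called over the course, at -0.95 and -0.45.

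Citrate synthase (Cs), which brings acetyl-CoA into the cycle, went the other way. Its means were -0.14 ± 0.22, -0.06 ± 0.33, 0.37 ± 0.12 and 0.29 ± 0.26. Cs rose by 0.44 ± 0.14 from RA48 to RA96 (adjusted p = 0.037) and by 0.43 ± 0.14 over the course (0.015), with overlap between the groups in each case. The first of these was 0.62 in replicates 1 to 3 and 0.14 in replicates 4 to 6. It was not called without RA48 replicate 1, 2 or 3 or RA96 replicate 2, 4, 5 or 6 (adjusted p up to 0.129). Its 2 probes changed by 0.21 and 0.65 over the course, and only the second was called.

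Isocitrate dehydrogenases gave separate courses. Idh3a, the catalytic subunit of the NAD-linked enzyme of the cycle, ran from -0.65 to -0.04 in Control (median -0.21) and was -1.23, -1.26, -1.26, -0.55 and -0.46 in RA48. It ran from -0.76 to -0.44 in RA96 (median -0.59) and from -0.58 to -0.32 in Puromycin (median -0.47). It fell by 0.69 ± 0.14 in RA48 (adjusted p = 0.00073), by 0.82 in replicates 1 to 3 and 0.42 in replicates 4 to 6, and gave -0.20 over the course with no call. Of the other subunits, Idh3g (means -0.07 ± 0.24, -0.33 ± 0.29, -0.52 ± 0.28 and -0.65 ± 0.35) fell by 0.58 ± 0.16 over the course (0.006), and Idh3b (0.03, 0.19, 0.06 and -0.11) had no call unless the array set was a block. Idh1, the NADP-linked form outside the mitochondria, ran from -0.59 to 0.03 in Control (median -0.33) and was -0.20, -0.07, -0.12, -0.34 and -0.49 in RA48. It ran from -1.26 to 0.03 in RA96 (median -0.47) and from -1.79 to -0.90 in Puromycin (median -1.28). Puromycin arrays lay below all Control and RA48 arrays. Idh1 fell by 0.78 ± 0.20 from RA96 to Puromycin (0.022) and by 1.00 ± 0.20 over the course (0.00029), with -1.04 in replicates 1 to 3 and -0.96 in replicates 4 to 6. The fall after RA96 was not called without RA96 replicate 4, 5 or 6 or Puromycin replicate 1, 2 or 3 (adjusted p up to 0.068). RA96 itself parted: replicates 1 to 3 were -0.99, -0.73 and -1.26, and replicates 4 to 6 were -0.08, -0.20 and 0.03.

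The later enzymes of the cycle gave few calls. Ogdh, of the 2-oxoglutarate dehydrogenase complex, fell by 0.34 ± 0.13 over the course (adjusted p = 0.038), although neither of its 2 probes was called alone (-0.57 and -0.11). Fh1, the fumarase, fell by 0.24 ± 0.09 (0.034). Neither was called by the F test (0.14 and 0.097). Ogdh was not called over the course without Control replicate 3, 4, 5 or 6 or Puromycin replicate 1, 2 or 3 (adjusted p up to 0.101), nor Fh1 without Control replicate 4 or 5 or Puromycin replicate 1, 2 or 3 (up to 0.083). Centring each array on its median also ended both calls (0.06 and 0.069). The malate dehydrogenases Mdh1 (cytosol, means -0.36, -0.42, -0.30 and -0.65) and Mdh2 (mitochondria, means -0.35, -0.14, -0.23 and -0.53) had no call without a block. Mdh1 was called lower over the course with the replicate block (-0.29, 0.022). With replicates 1 to 3 against 4 to 6 as a block, Mdh1 was called lower over the course and after RA96.

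Only non-oxidative enzymes stood for the pentose phosphate pathway. Tkt, the transketolase, ran from -0.04 to 0.92 in Control (median 0.44) and was -0.03, -0.02, 0.00, 0.45 and 0.98 in RA48. It ran from -0.60 to 0.37 in RA96 (median -0.04) and from -0.72 to 0.19 in Puromycin (median -0.29). The groups overlapped, and replicates 1 to 3 lay below replicates 4 to 6 in Control, RA48 and Puromycin. Tkt fell by 0.71 ± 0.22 over the course (adjusted p = 0.0097), by 0.79 in replicates 1 to 3 and 0.64 in replicates 4 to 6. It was also called lower from RA48 to RA96 with the replicate block (-0.38, 0.046), with replicates 1 to 3 against 4 to 6 as a block (0.029) and with the array set as a block (0.0013). Its 3 probes gave -0.34, -0.61 and -1.19, of which the last was called. Taldo1, the transaldolase, ran from -0.02 to 0.47 in Control (median 0.30) and was -0.10, -0.10, -0.13, 0.42 and 0.29 in RA48. It ran from -0.38 to 0.08 in RA96 (median -0.27) and from -0.33 to -0.07 in Puromycin (median -0.19). It fell by 0.46 ± 0.12 over the course (0.0028), with no overlap between Control and Puromycin, and from RA48 to RA96 it was called lower only with the array set as a block (0.043).

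**Figure D4:**
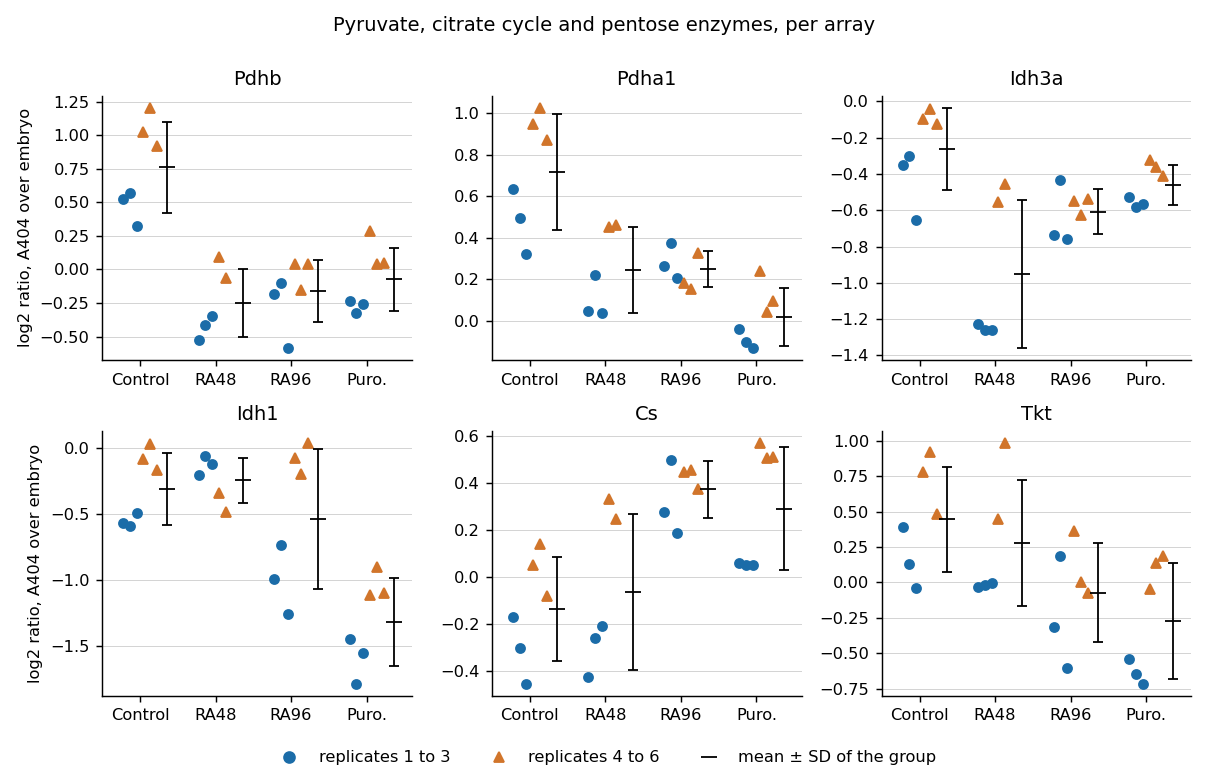
The log2 ratio over the embryo pool of 6 enzymes of pyruvate oxidation, the citric acid cycle and the pentose phosphate pathway is shown for each array, with circles for replicates 1 to 3, triangles for replicates 4 to 6 and bars for mean ± SD. Control lies above the other groups for Pdhb, Idh1 is lowest in Puromycin at a mean of -1.32, and Cs is higher in RA96 at 0.37 than in Control.

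Values of several of the 6 sterol enzymes parted by replicate number in RA48 and RA96. Promoters of 4 of the 6 are printed below only to describe their letters, and no link to that split was tested. Without a block limma called 1 of the 6 from RA48 to RA96 and 3 over the course, all lower, and none in RA48 (1 higher and 0 lower at an unadjusted p under 0.05) or after RA96 (0 and 4). RefSeq promoter windows (GRCm38.p6, 250 bases before to 50 bases after a gene's start) were at hand for 4 of the 6: Hmgcs1 at chr13:119690101-119690400 (plus strand), Cyp51 at chr5:4104648-4104947 (minus strand), Lss at chr10:76531355-76531654 (plus strand), and Dhcr7, whose window of 3 at chr7:143829964-143830263 (plus strand) is printed because it holds matches. Capitals mark matches on either strand to the CCAAT box (letters CCAAT, or ATTGG on the other strand) and to the sterol regulatory element as searched (letters TCACNCCAC).
Hmgcs1: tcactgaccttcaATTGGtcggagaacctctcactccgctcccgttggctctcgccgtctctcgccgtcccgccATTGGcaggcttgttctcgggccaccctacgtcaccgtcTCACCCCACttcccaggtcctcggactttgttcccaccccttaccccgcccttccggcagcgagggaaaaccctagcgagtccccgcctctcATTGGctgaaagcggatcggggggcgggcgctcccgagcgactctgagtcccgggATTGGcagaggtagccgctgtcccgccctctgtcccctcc
Cyp51: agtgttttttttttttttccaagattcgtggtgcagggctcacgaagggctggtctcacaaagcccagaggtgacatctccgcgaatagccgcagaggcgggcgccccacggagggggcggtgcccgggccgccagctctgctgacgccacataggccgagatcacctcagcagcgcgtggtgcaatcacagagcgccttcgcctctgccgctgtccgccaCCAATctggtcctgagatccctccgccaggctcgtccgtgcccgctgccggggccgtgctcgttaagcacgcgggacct
Lss: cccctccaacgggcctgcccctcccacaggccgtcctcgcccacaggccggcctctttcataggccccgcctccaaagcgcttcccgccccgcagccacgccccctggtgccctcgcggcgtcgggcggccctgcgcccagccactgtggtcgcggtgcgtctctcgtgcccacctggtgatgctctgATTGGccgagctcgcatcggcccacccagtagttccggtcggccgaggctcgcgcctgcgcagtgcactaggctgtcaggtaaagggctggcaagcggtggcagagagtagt
Dhcr7: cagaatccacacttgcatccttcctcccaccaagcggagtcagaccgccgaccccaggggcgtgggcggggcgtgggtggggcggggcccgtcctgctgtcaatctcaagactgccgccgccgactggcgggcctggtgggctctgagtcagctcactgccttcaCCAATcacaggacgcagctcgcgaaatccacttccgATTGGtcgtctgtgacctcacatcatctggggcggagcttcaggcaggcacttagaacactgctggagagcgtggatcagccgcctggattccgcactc
CCAAT letters stood in 4 of the 6 windows of these 4 genes and in 37.4% of all 32851 windows. By gene, they stood in at least 1 window of all 4 and of 11096 of 27025 genes. The sterol regulatory element letters stood in 1 of the 6 windows, that of Hmgcs1, and in 1.24% of all windows. No match says only that these letters are not in this window, and a match is no proof of a site.

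Replicates 1 to 3 and replicates 4 to 6 had different values along the course for most sterol enzymes. Hmgcs1, which makes HMG-CoA at the head of the pathway, was -0.27, -0.33 and -0.37 in Control replicates 1 to 3, then 0.25, 0.38 and 0.34 in RA48, -0.98, -0.71 and -0.91 in RA96 and -1.26, -1.24 and -1.18 in Puromycin. In replicates 4 to 6 it was 0.07, 0.01 and -0.07 in Control, 0.02 and 0.12 in RA48, 0.72, 0.67 and 0.91 in RA96 and -0.22, -0.42 and -0.37 in Puromycin. So replicates 1 to 3 had their highest level at 48 h and replicates 4 to 6 at 96 h, and each was lowest after puromycin. From RA48 to RA96 the change was -1.19 in replicates 1 to 3 and 0.69 in replicates 4 to 6. The RA96 group as a whole therefore had a mean of -0.05 ± 0.90, and no pairwise comparison of Hmgcs1 was called without a block (F test, adjusted p = 0.045). Over the course it was called lower with the replicate block (-0.62, 0.033).

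Cyp51, which removes a methyl group from lanosterol, parted by replicate number as well. It was 0.76, 0.67 and 0.56 in Control replicates 1 to 3, 1.27, 1.41 and 1.39 in RA48, 0.48, 0.32 and 0.58 in RA96 and 0.05, 0.12 and 0.02 in Puromycin. In replicates 4 to 6 it was 0.65, 0.70 and 0.67, then 0.91 and 1.05, then 1.41, 1.33 and 1.42, and then 0.82, 0.63 and 0.78. Every RA48 array lay above every Control array (0.53 ± 0.20, adjusted p = 0.055, not called; called with replicates 1 to 3 against 4 to 6 as a block, 0.012). From RA48 to RA96 Cyp51 changed by -0.89 in replicates 1 to 3 and by 0.41 in replicates 4 to 6. Its 2 probes changed by 0.34 and 0.72 in RA48.

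Fdft1, the squalene synthase, was 0.47, 0.46 and 0.56 in RA48 replicates 1 to 3 and -0.45, -0.37 and -0.47 in the same numbers of RA96. In replicates 4 to 6 it was 0.16 and 0.08 in RA48 and 0.44, 0.38 and 0.40 in RA96. The means of all arrays were 0.04 ± 0.18, 0.34 ± 0.21, -0.01 ± 0.46 and -0.39 ± 0.30. Fdft1 fell by 0.44 ± 0.17 over the course (adjusted p = 0.045), by 0.71 in replicates 1 to 3, and its change in replicates 4 to 6 was -0.16. This call was lost without Control replicate 1, 2, 4 or 5 or Puromycin replicate 1, 2 or 3 (up to 0.102), with arrays centred on the median (0.06) and with quantile normalization (0.074). Lss, the lanosterol synthase, was 0.64, 0.78 and 0.73 in RA48 replicates 1 to 3 and -0.13, -0.38 and -0.10 in RA96. In replicates 4 to 6 it was -0.01 and -0.34 in RA48 and 0.30, 0.18 and 0.36 in RA96. Control ran from 0.23 to 0.52 (median 0.37) and Puromycin from -0.16 to 0.07 (median -0.06), with no overlap. Lss fell by 0.44 ± 0.16 over the course (0.028), by 0.46 in replicates 1 to 3 and 0.42 in replicates 4 to 6, and was not called without Control replicate 1 or 2 or Puromycin replicate 5 (up to 0.055).

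Dhcr7, which makes cholesterol in the last step, fell over the course. It was 1.08, 0.62 and 0.71 in Control replicates 1 to 3, 0.59, 0.87 and 0.64 in RA48, -0.55, -0.88 and -0.31 in RA96 and -1.02, -0.89 and -0.85 in Puromycin. In replicates 4 to 6 it was 0.51 on all 3 Control arrays, 0.28 and 0.19 in RA48, 0.14, 0.18 and 0.27 in RA96 and -0.39, -0.62 and -0.51 in Puromycin. Puromycin arrays lay below all Control arrays in both. Dhcr7 fell by 1.37 ± 0.18 over the course (adjusted p = 1.4e-06), or 2.59-fold, by 1.72 in replicates 1 to 3 and by 1.02 in replicates 4 to 6. It also fell by 0.71 ± 0.19 from RA48 to RA96 (0.011), but by 1.28 in replicates 1 to 3 against a change of -0.04 in replicates 4 to 6. Sqle, the squalene epoxidase, had no call without a block (means -0.08 ± 0.47, 0.16 ± 0.75, -0.33 ± 0.39 and -0.66 ± 0.35; F test 0.087). From RA48 to RA96 it changed by -1.15 in replicates 1 to 3 and by 0.45 in replicates 4 to 6, and over the course it was called lower with the replicate block (-0.58, 0.039).

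Over the 6 sterol enzymes, the median change from RA48 to RA96 was -1.04 in replicates 1 to 3 and 0.43 in replicates 4 to 6. For RA48 against Control it was 0.42 and -0.06, for Puromycin against RA96 -0.29 and -0.67, and for the whole course -0.69 and -0.38. The split by replicate number was chosen after these values were seen, so the difference between replicates 1 to 3 and 4 to 6 is a description and was not tested. RA96 replicate 2, which the first principal component put with replicates 4 to 6, lay with replicates 1 and 3 for Hmgcs1, Fdft1, Lss, Cyp51 and Dhcr7. For Aldoa it lay with replicates 4 to 6, at -0.27 against -1.74 and -1.88 in replicates 1 and 3. What sets these arrays apart was not tested.

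**Figure D5:**
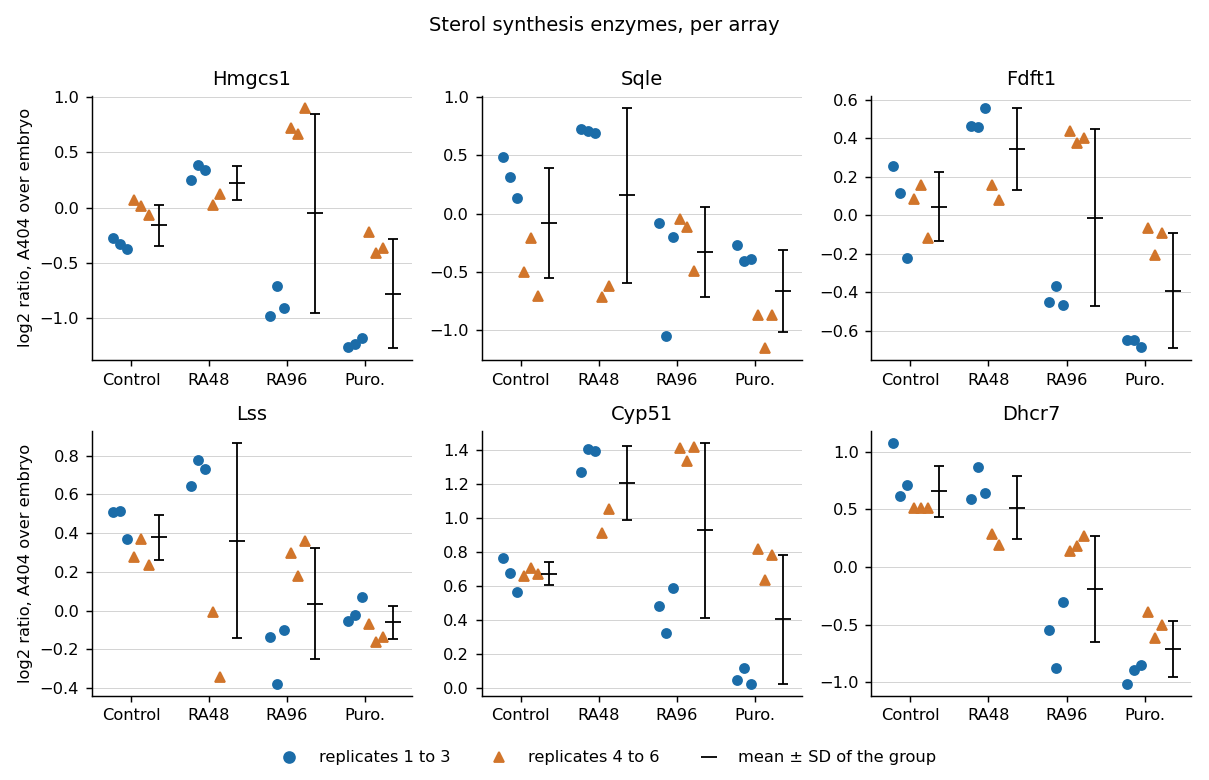
The log2 ratio over the embryo pool of the 6 measured sterol enzymes is shown for each array, with circles for replicates 1 to 3, triangles for replicates 4 to 6 and bars for mean ± SD. Circles are lower and triangles level or higher in RA96 than in RA48, as for Hmgcs1, where the 3 circles of RA96 lie between -0.98 and -0.71 and the 3 triangles between 0.67 and 0.91.

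Fatty acid synthesis was measured at 2 enzymes. Fasn, the fatty acid synthase, ran from -0.21 to 0.57 in Control (median 0.17) and was 0.46, 0.21, 0.44, -0.53 and -0.54 in RA48. It ran from -0.66 to 0.01 in RA96 (median -0.52) and from -0.68 to -0.10 in Puromycin (median -0.37). Replicates 1 to 3 lay above replicates 4 to 6 in Control, RA48 and Puromycin. Fasn fell by 0.55 ± 0.19 over the course (adjusted p = 0.024), by 0.68 in replicates 1 to 3 and 0.41 in replicates 4 to 6, and was not called without Control replicate 2 or 3 or Puromycin replicate 4 (up to 0.061). With the replicate block it was called lower from RA48 to RA96 (-0.35, 0.032). Acaca, the acetyl-CoA carboxylase that supplies malonyl-CoA, ran from 0.95 to 1.17 in Control (median 1.01) and was 0.92, 1.04, 1.01, 1.18 and 1.13 in RA48. It ran from 0.68 to 1.06 in RA96 (median 0.91) and from 0.51 to 0.97 in Puromycin (median 0.72). Acaca fell by 0.30 ± 0.09 over the course (0.0087), by 0.48 in replicates 1 to 3, with a change of -0.12 in replicates 4 to 6. It was called lower from RA48 to RA96 with the array set as a block alone (0.024).

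Set side by side, the pathways had these calls in the fit without a block. In RA48, where 16.4% of all genes fell, 6 of 13 glycolytic enzymes and 3 of 11 enzymes of pyruvate dehydrogenase and the citric acid cycle fell. From RA48 to RA96, where 10.8% of all genes rose and 11.6% fell, glycolysis had 3 falls and 1 rise, the citric acid cycle group 1 rise and the sterol enzymes 1 fall. After RA96, where 4.7% rose and 3.12% fell, glycolysis had 3 rises and the citric acid cycle group 1 fall. The pentose phosphate and fatty acid enzymes had calls over the whole course alone in this fit. With the replicate block Tkt and Fasn were called lower from RA48 to RA96, and with the array set as a block both enzymes of each pathway were. The array set as a block also gave 1 of the 2 fatty acid enzymes as lower in RA48 against Control. Median changes over the course were -0.29 for glycolysis and for the citric acid cycle group, -0.59 for the pentose phosphate pathway, -0.51 for sterol and -0.42 for fatty acid synthesis. With sterol and fatty acid enzymes joined, the median was 0.13 in RA48, -0.34 from RA48 to RA96, -0.36 after RA96 and -0.49 over the course, with 5 of 8 fallen. Differences between pathways were not tested.

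Other genes of the same pathways, taken from lists written by name, put these enzymes in context. Beside the counts below, 18% of all genes rose and 16.4% fell in RA48, 10.8% and 11.6% from RA48 to RA96, and 24.6% and 28.6% over the course, and several lists lie near or below these shares. Of 96 calls of these further genes, 31 stayed with correlated arrays: 13 of 26 in RA48, 1 of 24 from RA48 to RA96 (Mpc1), none of 7 after RA96 and 17 of 39 over the course. Of 14 further glycolysis and glucose or lactate transport genes, 1 rose and 3 fell in RA48, and 1 rose and 6 fell over the course. Slc16a3, the lactate exporter MCT4, fell by 1.03 ± 0.12 in RA48 (adjusted p = 5.9e-07) and by 1.39 ± 0.11 over the course, and Slc16a1, the transporter MCT1, fell by 0.88 ± 0.16 over the course. Pfkfb3, which makes the activator of phosphofructokinase, rose by 0.60 ± 0.11 in RA48 (0.00017) and by 1.03 ± 0.10 over the course. Pck2 fell by 0.66 ± 0.14 in RA48, Gpd2 by 0.50 ± 0.13 from RA48 to RA96 and Tigar by 0.49 ± 0.12 after RA96. The calls of Slc16a3, Slc16a1 and Pfkfb3 stayed with correlated arrays, that of Pfkfb3 in RA48 narrowly (adjusted p = 0.049), and those 3 of Pck2, Gpd2 and Tigar were lost.

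Of 21 further genes around pyruvate and the citric acid cycle, 3 rose and 6 fell in RA48, and 4 rose and 7 fell over the course. Mpc1, a subunit of the mitochondrial pyruvate carrier, rose by 0.80 ± 0.08 from RA48 to RA96 (adjusted p = 2.4e-07), by 0.28 ± 0.07 after RA96 and by 1.17 ± 0.07 over the course. Of the kinases that switch off pyruvate dehydrogenase, Pdk3 rose by 0.89 ± 0.09 in RA48, Pdk4 rose by 0.46 ± 0.08 after RA96, and Pdk1 fell by 0.77 ± 0.19 in RA48 and by 1.17 ± 0.18 over the course. Got1, the cytosolic aspartate transaminase, fell by 0.90 ± 0.09 in RA48 and by 1.43 ± 0.08 over the course. Aco1 rose by 0.62 ± 0.12 in RA48, and from RA48 to RA96 Dld rose by 0.53 ± 0.14 and Glud1 fell by 0.81 ± 0.15. Of 5 further pentose phosphate genes, Prps1, which turns ribose 5-phosphate into PRPP for nucleotides, fell by 0.99 ± 0.12 in RA48 and by 1.35 ± 0.12 over the course, and Tktl1 rose by 0.49 ± 0.14 from RA48 to RA96. With correlated arrays the calls given for Pdk3, Got1 and Prps1 stayed, as did those of Mpc1 from RA48 to RA96 and over the course, and the others in this paragraph were lost.

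Of 18 further sterol genes, 6 rose and none fell in RA48 (7 and 0 at an unadjusted p under 0.05 in limma), 1 rose and 5 fell from RA48 to RA96, and 3 rose and 5 fell over the course. Abca1, which exports cholesterol, rose by 3.04 ± 0.27 in RA48 (adjusted p = 9.1e-09) and by 3.96 ± 0.25 over the course, the latter by 4.50 in replicates 1 to 3 and 3.43 in replicates 4 to 6. Srebf2, the gene of SREBP-2, fell by 0.97 ± 0.23 from RA48 to RA96 (0.0061), with -1.59 in replicates 1 to 3 and -0.28 in replicates 4 to 6, and by 0.85 ± 0.22 over the course. Ebp, the sterol isomerase, rose by 1.01 ± 0.10 in RA48 and fell by 0.61 ± 0.10 from RA48 to RA96, with -0.57 in replicates 1 to 3 and -0.63 in replicates 4 to 6, and so did not part as Hmgcs1 did. Over the course Mvd fell by 0.75 ± 0.14 and Stard4, a sterol carrier, rose by 0.36 ± 0.10. With correlated arrays the calls given for Abca1, for Ebp in RA48 and for Mvd stayed, and those of Srebf2, of Ebp from RA48 to RA96 and of Stard4 were lost.

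Of 18 further fatty acid genes, 3 rose and 3 fell in RA48, and 2 rose and 10 fell over the course. The desaturases Fads1 and Fads3 rose by 1.30 ± 0.11 and 1.29 ± 0.16 in RA48 (adjusted p of 3.2e-09 and 1.5e-06). After RA96, Fads1 fell by 0.58 ± 0.10 and Fads2 by 0.76 ± 0.20, while Fads3 rose by 0.55 ± 0.15 and stood 2.14 ± 0.15 above Control. Acsl5, an acyl-CoA synthetase, fell by 1.66 ± 0.16 in RA48 and by 1.99 ± 0.15 over the course, and Elovl6, the elongase of saturated chains, fell by 1.67 ± 0.10 over the course (8.2e-12). Mid1ip1, a partner of acetyl-CoA carboxylase, fell by 1.47 ± 0.12 in RA48 and rose by 0.52 ± 0.12 from RA48 to RA96, while Fads2 fell by 0.66 ± 0.21 and Mecr by 0.53 ± 0.13 in that step. With correlated arrays the calls given here for RA48 and for the whole course stayed, and those from RA48 to RA96 and after RA96 were lost.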

How the data were processed

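Per the labels, the scanner was an Agilent G2565AA and its images were turned to values by Agilent Feature Extraction. The deposited value per probe and array is read here as a log10 ratio of Cy5 (A404) over Cy3 (embryo), and the authors' normalization is not given in the sources used here. Values were divided by log10 of 2 (0.301). Of 21446 rows 1166 without a gene (5.44%), whose values had at most 6 significant digits, were left out as probable control spots. Probes with 1 symbol (11100) were averaged per gene, and 442 probes with several symbols and 8738 with none were kept as single rows, giving 17863 rows.

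Group means of 23 arrays were fitted with limma 3.58.1 (R 4.3.3; statmod 1.5.0 for correlated arrays). In simulated data of this size the model called 76% (RA48 versus Control), 84% (RA96 versus RA48), 80% (Puromycin versus RA96) and 81% (Puromycin versus Control) of rows made to differ by 1 on the log2 scale. For rows made to differ by 0.5 it called 31%, 31%, 35% and 36%. The simulated arrays varied independently, whereas the real arrays of the same group and set had an estimated correlation of 0.675. The sets were read from these same arrays, which raises that estimate. The simulated shares therefore describe independent arrays only, and recovery with correlated arrays was not simulated. Intensities were not used here, and the number of arrays limits the precision. The members and gene lists were chosen with earlier results of these data known. Array values are given for the enzymes with the widest range of group means among those the F test called, by pathway, and up to 2 other pathway genes each way per list and comparison by size; for Cs, Ogdh, Fh1 and other enzymes means or changes are given. Alternatives were centring, quantile normalization, array weights, blocks, array sets, thresholds, probe rules and leaving out each array. The split of replicates 1 to 3 from 4 to 6 was added after seeing the data. Motifs and figures were made with Python 3.11.15 and matplotlib 3.10.9.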

Additional observations from a re-analysis of the deposited data

Results flagged for a closer look

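In 136 sets of 5 or 6 arrays, 1 per enzyme and group, 3 had an array at 1 end whose gap to the next exceeded Dixon's critical value. Chance gives about 1 in 20. Tpi1, the triosephosphate isomerase, was -0.31 in Puromycin replicate 4, while the other 5 arrays ran from -0.67 to -0.61. Pdhb, the beta subunit of pyruvate dehydrogenase, was -0.59 in RA96 replicate 3, while the others ran from -0.18 to 0.04. Dhcr7, the last enzyme of cholesterol synthesis, was 1.08 in Control replicate 1, while the others ran from 0.51 to 0.71. The calls of Tpi1 in Puromycin against RA96 and of Dhcr7 in Puromycin against Control were kept without each array of those groups in turn. Pdhb had no call in a comparison that uses RA96.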

How the results depend on the processing

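Of 40 member calls, 27 were kept whichever array was left out, 37 with arrays centred on the median, 38 with quantile normalization, 33 with only the groups compared, 28 in each array set alone and 23 at an adjusted p under 0.01. All 40 were kept with the array set, with replicates 1 to 3 against 4 to 6, or with the replicate number as a block. They were also kept with trended and robust variance and with control-like rows kept. Reading the ratios as log2 rescales all values alike, so it could change no call and is no check of the base. Numbers of called members in RA48 versus Control were 9 as reported, 16 with the array set as a block, 14 in each set alone, 18 in replicates 4 to 6 alone, 23 with array weights and 4 with group and set as a random block. In RA96 versus RA48 they were 6 as reported, 15 with the set as a block, 16 in the first set alone, 11 with replicates 1 to 3 against 4 to 6 as a block, 14 in replicates 1 to 3 alone, 18 with array weights, 1 at an adjusted p under 0.01 and 0 with the random block. In Puromycin versus RA96 they were 4 as reported, 7 with either of the set and the 1 to 3 against 4 to 6 split as a block, 12 in replicates 4 to 6 alone, 10 with array weights and 0 with the random block. In Puromycin versus Control they were 21 as reported, 12 at an adjusted p under 0.01 and 8 with the random block, and for the F test 24, 14 and 6. The replicate number as a block gave 11 called members in RA96 versus RA48. Same-numbered arrays of different groups had correlated deviations over 0.1 in 30 of 33 pairs (median 0.403). Arrays of other numbers did so in 66 of 165 pairs (median -0.293, highest 0.723). Only 4 of 23 arrays matched their own number best, so the numbers were not taken to pair samples. The replicate block is given as a description, since it contains the split of replicates 1 to 3 from 4 to 6.

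Among changes called in either of the fits compared, directions turned for Lss in RA48 versus Control (0.25 in the first set, 0.32 with array weights), Pfkp (0.0598 in the second set and in replicates 4 to 6) and Idh1 (-0.34 in replicates 4 to 6). They turned in RA96 versus RA48 for Hmgcs1 (0.69), Lss (0.45) and Cyp51 (0.41) in replicates 4 to 6 and for Aldoa (0.70) and Gapdh (0.45) with array weights, and in Puromycin versus Control for Aldoc (0.00038 in the second set and in replicates 4 to 6). Fdft1 (0.29) and Sqle (0.45) also turned in RA96 versus RA48 in replicates 4 to 6, with no call in either fit. The cause was not tested, and the array weights did not converge. Over all rows, 4642, 3540, 942 and 8263 rows were called in the 4 comparisons, against 1437, 248, 17 and 3100 with the random block and 7029, 5726 and 2281 in the first 3 with the set as a block. Array weights gave 8135, 10273 and 2609 in these 3. In RA96 versus RA48, leaving out RA48 replicate 1, 2 or 3 gave 2239, 2305 and 2227 rows, the first and second sets alone 6697 and 2267, replicates 1 to 3 or 4 to 6 alone 6153 and 2309, their block 5429, and a threshold of 0.01 gave 1596. In Puromycin versus RA96 these were 1691 and 1638, 1724 and 2415, 2272 and 437, and 1784 with the replicate block. The set fits are optimistic, since the sets come from the same deviations. Single probes gave no value per gene, and the F test none with only the groups compared.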

Other observations

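Among the measured glycolytic enzymes, the letters ACGTG, the core of the hypoxia response element, stood on either strand in 11 of 22 RefSeq promoter windows (GRCm38.p6), from 9 of 13 genes. Among the enzymes of pyruvate dehydrogenase and the citric acid cycle they stood in 9 of 16 windows, from 4 of 10 genes, and most of these 9 windows were of Ogdh alone. Over all promoter windows of the same length the share was 19.6%, from 5886 of 27025 genes. The E-box CACGTG, which contains these letters, stood in 2 of the 22, in 3 of the 16 (all of 1 gene) and in 7.15% of all windows. The sterol regulatory element letters TCACNCCAC stood in 2 glycolytic windows, those of Pkm and Aldoc. The windows of 1 gene overlap or neighbour each other, and a match is a description of letters only.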
